A study of Mus musculus with 12 samples.

Results

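A list of 10 genes that mast cells are known for was followed across colon epithelium of mice with and without the ETS transcription factor Ehf: the chymase family members Cma1, Mcpt1, Mcpt2 and Mcpt4, the granule proteases Cpa3 and Tpsb2, the histamine-making enzyme Hdc, and the receptor genes Fcer1a, Ms4a2 and Kit. They were chosen by symbol, as 10 of the 55304 gene symbols counted, because Cma1 was already known to be higher in the Ehf knockout libraries, so the knockout against control values of these genes are a description and carry no test. Of the 15743 genes with enough reads to be tested, 3 were from this list, namely Cma1, Mcpt1 and Kit, and the other 7 are given by their read counts. Cma1 passed the filter on low counts only through the knockout libraries, where it is high.

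The study sequenced total RNA of colonic epithelium from 12 C57BL/6 mice aged 6 weeks, 4 in each of 3 groups. Control-OIL mice are labelled wild-type and received sunflower oil, the carrier. Control-TMX mice are labelled wild-type and received tamoxifen, and their names begin with VilCreER. EHF IKO mice are labelled Ehf intestinal knockout and received tamoxifen, and their names begin with EVCER, as do those of the Control-OIL mice. In the inducible Cre mice of the design, CreERT2 is driven by the Villin promoter, which is active in epithelial cells of the gut and not in mast cells, and the tamoxifen-treated Cre controls were included for changes that tamoxifen itself could bring about. The epithelium was shaken off the opened colon in EDTA buffer, vortexed and pelleted after removal of the muscle, with no sorting step given, so a pellet may hold other cells of the mucosa.

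Mast cells are long-lived immune cells of mucosa and connective tissue that store proteases, histamine and proteoglycans in granules and release them when IgE bound to their surface receptor is crosslinked by antigen. They need the receptor tyrosine kinase Kit and its ligand, stem cell factor, to grow and survive. In mice, mucosal mast cells are known for the chymases Mcpt1 and Mcpt2, while mast cells of connective tissue carry Cma1, Mcpt4, the tryptase Tpsb2 and carboxypeptidase Cpa3. In bulk RNA, fewer cells of a type and less RNA per cell cannot be told apart.

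Cma1 lies on chromosome 14 of GRCm38 from 55941451 to 55944675 on the minus strand, in a cluster of related protease genes. Mcpt1 (56017971 to 56020384, plus strand), Mcpt2 (56042041 to 56044642, plus strand) and Mcpt4 (56059629 to 56062313, minus strand) follow at higher coordinates. The 250 bases upstream of the annotated start are shown for Cma1, the gene that stood apart, and for its neighbours Mcpt1 and Mcpt4, to let their proximal promoters be compared. The sequences are from RefSeq (GRCm38.p6), whose promoter table held 8 of the 10 genes. They read 5′ to 3′ on the gene's strand, and capitals mark GGAA on either strand (GGAA or TTCC), the core that ETS factors such as Ehf bind.
Cma1, chr14:55944676-55944925, minus strand: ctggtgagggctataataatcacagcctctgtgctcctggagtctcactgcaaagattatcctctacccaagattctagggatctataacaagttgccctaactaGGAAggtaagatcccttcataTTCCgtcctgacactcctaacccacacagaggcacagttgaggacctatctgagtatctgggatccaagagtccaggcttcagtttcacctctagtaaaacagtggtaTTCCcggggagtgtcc
Mcpt1, chr14:56017714-56017963, plus strand: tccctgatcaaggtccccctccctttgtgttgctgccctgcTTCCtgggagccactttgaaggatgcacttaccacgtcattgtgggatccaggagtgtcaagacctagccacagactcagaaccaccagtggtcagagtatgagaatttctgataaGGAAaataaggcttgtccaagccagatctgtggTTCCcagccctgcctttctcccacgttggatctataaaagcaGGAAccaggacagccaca
Mcpt4, chr14:56062311-56062560, minus strand: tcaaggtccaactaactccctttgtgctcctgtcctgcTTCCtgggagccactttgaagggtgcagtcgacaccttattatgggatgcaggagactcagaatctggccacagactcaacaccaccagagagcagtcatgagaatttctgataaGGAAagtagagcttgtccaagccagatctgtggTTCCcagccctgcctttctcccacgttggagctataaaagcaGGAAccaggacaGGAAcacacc
The Cma1 window held 3 matches, that of Mcpt1 4 and that of Mcpt4 5. The core is so short that 93.4% of the 32851 windows of this length held it, with a median of 3 matches. The longer ETS motif CCGGAAGT, searched on both strands and containing GGAA, was in none of the 3 windows and in 2.88% of all windows. A match describes the letters only, and binding of Ehf was not measured.

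Library totals ran from 7421411 to 10344161 counted reads, with a median of 8138352. Levels are CPM, the reads of a gene scaled to a common library size after TMM normalisation, and 1 read was worth 0.0935 to 0.155 CPM. The library EHF IKO 2 stood apart: 5866 genes had a read in it and in no other library, against at most 277 such genes in any other library. Those genes held 10325 reads, so single reads in EHF IKO 2 are given with that in view. The epithelial adhesion gene Epcam stood at 951 ± 56.6, 926 ± 62.1 and 1016 ± 46.3 CPM (SD, n = 4 each) in Control-OIL, then Control-TMX, then EHF IKO, an order kept throughout. The epithelial share of the RNA was not measured.

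Among the chymases, Cma1 encodes the mouse alpha-chymase, also called mast cell protease 5. Its read counts were 2, 10, 13 and 1 in Control-OIL libraries 1 to 4, 1, 5, 2 and 10 in Control-TMX, and 43, 32, 37 and 98 in EHF IKO. As CPM these were 0.280, 1.11, 1.66 and 0.0987 in Control-OIL, 0.155, 0.618, 0.212 and 0.935 in Control-TMX, and 5.01, 4.42, 4.92 and 13.2 in EHF IKO. The lowest knockout library thus lay above the highest of the 8 controls, and EHF IKO 4 lay well above the other knockout libraries. The group means were 0.785 ± 0.728, 0.480 ± 0.367 and 6.88 ± 4.20 CPM (SD, n = 4 each).

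**Figure D1:**
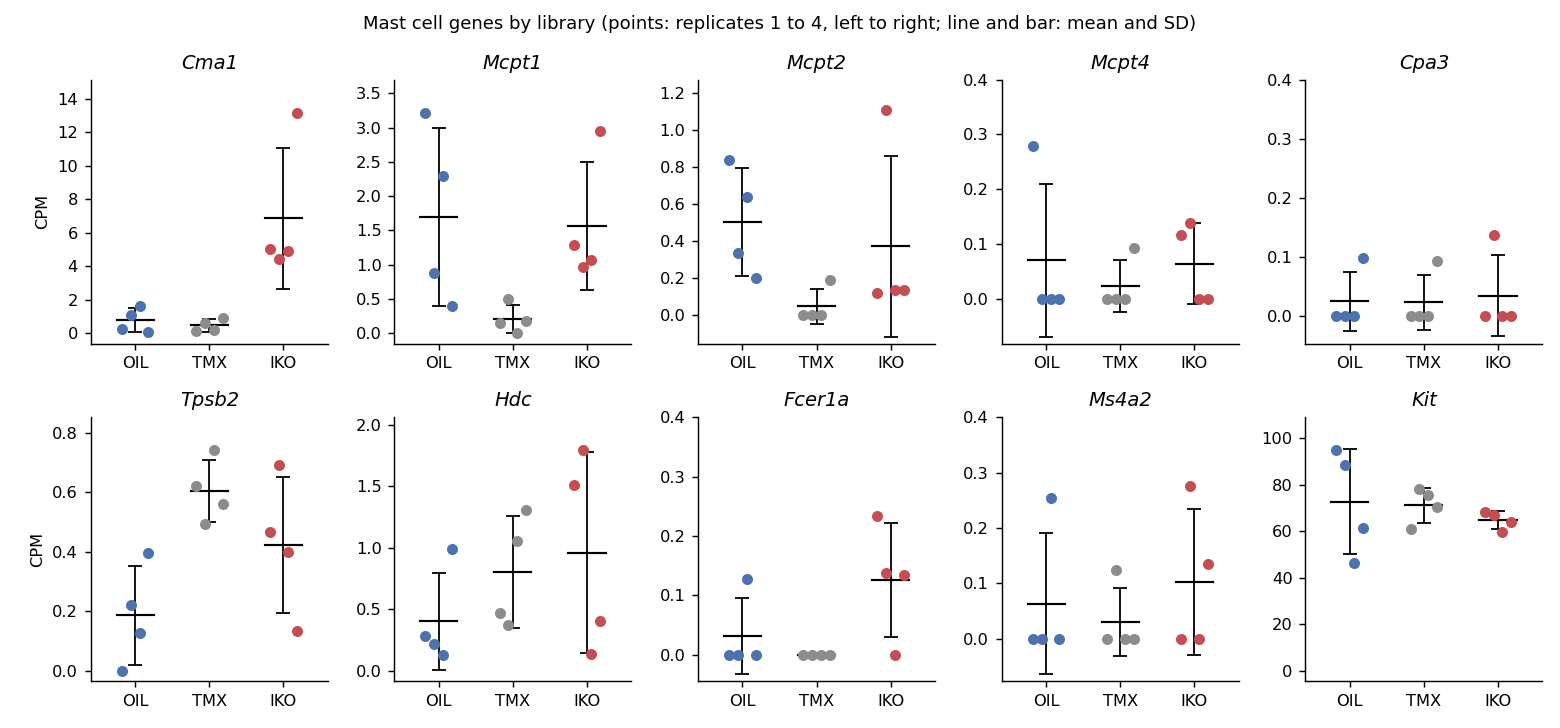
Level of each of the 10 mast cell genes in CPM (y axis, linear, its own range per gene) in the 4 libraries of Control-OIL (OIL), Control-TMX (TMX) and EHF IKO (IKO). Points are replicates 1 to 4 from left to right, lines and bars are the mean and SD. Cma1 has all 4 knockout libraries above all 8 controls, while Mcpt1 and Kit overlap between groups and most other genes sit at 1 CPM or below.

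The edgeR fit of all 12 libraries gave Cma1 a log2 fold change of 3.42 ± 0.47 (SE), or 10.7-fold, for EHF IKO over both controls averaged. Against Control-OIL the difference was 3.13 ± 0.58 and against Control-TMX 3.71 ± 0.62. The knockout libraries are shared by these comparisons. Without EHF IKO 4 the difference from the mean of both controls was 2.90 ± 0.44, and without EHF IKO 2 it was 3.58 ± 0.50. Control-TMX minus Control-OIL was -0.58 ± 0.79, given without a test, since Cma1 had too few reads to be fitted in the control libraries alone. Each of them held at most 13 reads.

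Mcpt1, the chymase of mucosal mast cells in the gut, did not follow Cma1 against both controls. Its counts were 23, 8, 18 and 4 in Control-OIL, 1, 4, 0 and 2 in Control-TMX, and 11, 7, 8 and 22 in EHF IKO. As CPM the Control-OIL libraries lay between 0.395 and 3.21, those of Control-TMX between 0 and 0.494, and those of EHF IKO between 0.966 and 2.96. The knockout range sat inside the Control-OIL range and above every Control-TMX library. EHF IKO minus Control-OIL was -0.05 ± 0.57 on the log2 scale, EHF IKO minus Control-TMX was 2.86 ± 0.80, and EHF IKO minus the mean of both controls was 1.40 ± 0.58. Control-TMX minus Control-OIL was -2.91 ± 0.79, with 3 of 4 Control-TMX libraries below every Control-OIL library, and did not pass the threshold (edgeR adjusted p = 0.178), although it passed without the filter on low counts (adjusted p = 8.97e-05). Like Cma1, Mcpt1 had too few reads to be fitted in the control libraries alone. Both p-values therefore come from fits that include the knockout libraries, and nothing firm is read from them.

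At an edgeR adjusted p under 0.05, 1 of the 3 tested mast cell genes, Cma1, was called in each comparison with EHF IKO. Over all 15743 genes the share edgeR called was 1.72% against the mean of both controls, 1.68% against Control-OIL and 0.800% against Control-TMX. DESeq2 called 2 of the 3 against Control-TMX, Cma1 and Mcpt1, and 305 of all genes. Since the Cma1 difference chose the list, nothing is read from these counts. In Control-TMX minus Control-OIL edgeR called 0.0826% of all genes and neither Mcpt1 nor Kit, with Mcpt1 tested only in fits that include the knockout libraries. There Mcpt1 alone had an unadjusted p under 0.05, and neither gene was called by DESeq2 or limma-voom (0 each, with no adjusted p for Mcpt1 from DESeq2). All 4 knockout libraries lay above all 8 controls for 1.17% of the tested genes (184), Cma1 among them.

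Mcpt2, a second chymase-family protease of mucosal mast cells, was counted 6, 3, 5 and 2 times in Control-OIL, 0, 0, 0 and 2 times in Control-TMX, and 1, 8, 1 and 1 times in EHF IKO. Its group means were 0.501 ± 0.290, 0.0468 ± 0.0935 and 0.372 ± 0.488 CPM. Like Mcpt1, it had its highest sum in Control-OIL and its lowest in Control-TMX, and 8 of its 11 knockout reads came from EHF IKO 2. Mcpt4, the chymase of connective tissue mast cells, summed to 2, 1 and 2 reads over the 4 libraries of these groups. At that depth no difference in Mcpt2 or Mcpt4 could be measured.

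Cpa3, the carboxypeptidase that mast cells store with the chymases, was almost absent. It had 1 read in each group of 4 libraries, and the knockout read was in EHF IKO 2. Tpsb2, a tryptase of mast cell granules, was counted 0, 2, 1 and 4 times in Control-OIL, 4, 4, 7 and 6 times in Control-TMX, and 4, 5, 3 and 1 times in EHF IKO. Its means were 0.186 ± 0.166, 0.605 ± 0.105 and 0.422 ± 0.229 CPM, so the knockout libraries lay across both control groups. Hdc, which makes histamine from histidine, was counted 2, 2, 1 and 10 times in Control-OIL, 3, 3, 10 and 14 times in Control-TMX, and 13, 13, 1 and 3 times in EHF IKO. Its knockout libraries were split, with 1.51 and 1.79 CPM in EHF IKO 1 and 2 against 0.133 and 0.403 in EHF IKO 3 and 4. The knockout library with the most Cma1, EHF IKO 4, had 1 read of Tpsb2, its lowest count in that group, and 3 of Hdc.

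The receptor genes that define the cell type were near 0. Fcer1a, the IgE-binding chain of the high-affinity IgE receptor, had 1, 0 and 4 reads in Control-OIL, Control-TMX and EHF IKO. Reads of it were in 3 of the 4 knockout libraries and in 1 of the 8 controls. The 0 in Control-TMX allows up to 0.0865 CPM (3 reads over the group), for counting error only. Ms4a2, the beta chain of the same receptor, had 2, 1 and 3 reads in these groups. Of the 4 knockout reads of Fcer1a 1, and of the 3 of Ms4a2 2, came from EHF IKO 2. With Cpa3, Mcpt4, Fcer1a and Ms4a2 at 0 to 2 reads in every library, the libraries hold little RNA of the genes that mark mast cells most closely, and the set is called here by its genes and not as a count of cells.

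Kit, the receptor for stem cell factor, was the one abundant gene of the list. Its counts were 679, 799, 364 and 623 in Control-OIL, 393, 632, 713 and 752 in Control-TMX, and 587, 485, 449 and 477 in EHF IKO. The means were 72.8 ± 22.8, 71.2 ± 7.54 and 64.8 ± 3.81 CPM, and all 3 groups overlapped. EHF IKO minus the mean of both controls was -0.15 ± 0.15 on the log2 scale, and Control-TMX minus Control-OIL was -0.03 ± 0.17 (edgeR adjusted p = 0.963). In mouse colon Kit also marks deep crypt secretory cells and interstitial cells of Cajal. Ano1, another gene of interstitial cells of Cajal, stood at 212 ± 23.6, 219 ± 31.6 and 246 ± 17.0 CPM. Etv1, the remaining gene listed for these cells, was low, at 1.63 ± 0.407, 1.37 ± 0.370 and 1.39 ± 1.01 CPM.

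Per kilobase of exon, which allows levels to be compared between genes, the order in EHF IKO was Kit at 7.27 ± 0.427 CPM per kb, Cma1 at 6.31 ± 3.85, Mcpt1 at 1.54 ± 0.922 and Mcpt2 at 0.351. Tpsb2 at 0.265, Hdc at 0.150 and Fcer1a at 0.127 followed, and Mcpt4 at 0.0574, Ms4a2 at 0.0365 and Cpa3 at 0.0227 were lowest. Kit and Cma1 do not differ beyond their spread in that order, and the genes after Mcpt1 rest on 30 reads or fewer. In the controls Cma1 stood at 0.720 CPM per kb in Control-OIL and 0.440 in Control-TMX, below Mcpt1 in the former (1.67) and above it in the latter (0.206).

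The question set for the list was whether the Cma1 difference goes with other mast cell genes. The 8 others without Kit (Mcpt1, Mcpt2, Mcpt4, Cpa3, Tpsb2, Hdc, Fcer1a and Ms4a2) summed to 33, 15, 28 and 21 reads in Control-OIL, 8, 12, 17 and 26 in Control-TMX, and 32, 38, 13 and 29 in EHF IKO. These sums overlap between all groups, with the lowest knockout library at 13 reads and the highest at 38. The share of Cma1 in the reads of these 9 genes was 21.1% in Control-OIL (26 of 123 reads, 95% Wilson interval 14.9 to 29.2), 22.2% in Control-TMX (18 of 81, 14.5 to 32.4) and 65.2% in EHF IKO (210 of 322, 59.9 to 70.2). By library the share was 57.3%, 45.7%, 74.0% and 77.2% in EHF IKO 1 to 4, and 4.55% to 40.0% in the controls. Every knockout library had a larger share than every control. As Cma1 was chosen for being higher there, that larger share is a description and not support. The group intervals pool the reads of 4 libraries, so they cover counting error only and not the spread between mice. Whether the change of Cma1 differs from that of each other gene was not tested, as the knockout difference chose Cma1.

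**Figure D2:**
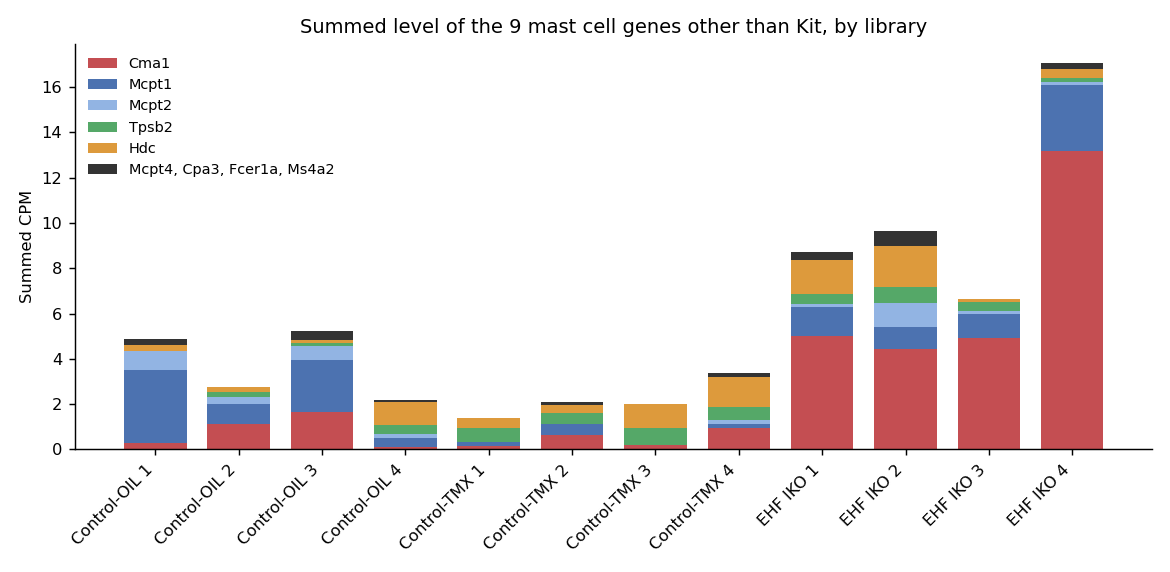
Summed CPM (y axis) of the 9 mast cell genes other than Kit in each of the 12 libraries (x axis), stacked by gene group. The segment of Cma1 makes up most of the added height in the EHF IKO libraries, where its mean was 6.88 CPM against 0.785 and 0.480 in the controls, while the segments of the other 8 genes together hold 13 to 38 reads there and 8 to 33 in the controls.

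A measure that leaves out the group difference is the relation between mice of 1 group. After subtracting each group's mean, log2 CPM of Cma1 was set against that of the 5 other genes with a read in at least 6 of the 12 libraries, with an exact two-sided permutation test that exchanges libraries within groups. For Mcpt1 Pearson's r was 0.535 (exact permutation p = 0.172, adjusted over the 5 relations 0.416) and Spearman's rho 0.420 (p = 0.274, adjusted 0.457). For Tpsb2 r was -0.457 (exact permutation p = 0.225, adjusted 0.416) and rho -0.517 (p = 0.139, adjusted 0.457). Hdc gave r = -0.393 (exact permutation p = 0.250, adjusted 0.416) and rho = -0.427 (p = 0.187, adjusted 0.457). Kit gave r = -0.167 (exact permutation p = 0.674, adjusted 0.782) and rho = -0.0490 (p = 0.897, adjusted 0.897), and Mcpt2 r = 0.0934 (exact permutation p = 0.782, adjusted 0.782) and rho = 0.0986 (p = 0.785, adjusted 0.897). None of the 5 passed. Without the libraries farthest from the Cma1 median, EHF IKO 4 and EHF IKO 1, r was 0.418 for Mcpt1, 0.279 for Mcpt2, -0.253 for Tpsb2, -0.353 for Hdc and -0.183 for Kit. Without Control-OIL 1, r was 0.832 for Mcpt1 (exact permutation, adjusted p = 0.0239) and -0.813 for Tpsb2 (adjusted p = 0.0188), so 1 library decides whether these relations pass. With these few reads, weak relations cannot be read as findings.

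A wider list of 26 further mast cell genes was examined beside the 10. Of these 12 were tested, and against both controls averaged 8 were higher and 4 lower in EHF IKO. None passed the threshold in edgeR, DESeq2 or limma-voom (0 in each), with 4 at an unadjusted p under 0.05. Their median log2 difference was 0.19, against 0.01 over all genes tested. The summed level of all 26 was 128 ± 8.5, 131 ± 14.7 and 153.2 ± 10.4 CPM, with every knockout library above every Control-OIL library and the lowest knockout library below the highest of Control-TMX. Most of that sum came from Rab27b (51.78, 47.52 and 62.2 CPM), Ndst2 (22.75, 26.16 and 23.87) and Tpsg1 (17.61, 20.71 and 18.85). It is thus no measure of the list as a whole. Against Control-OIL 10 of the 12 tested were higher and 2 lower, and against Control-TMX 9 and 3, again with 0 called by each tool and 3 at an unadjusted p under 0.05 in each. Control-TMX minus Control-OIL gave 8 higher and 4 lower, with 0 called and 0 at an unadjusted p under 0.05. The nearest to the threshold was Rgs13, a regulator of G protein signalling, at 3.69 ± 1.66, 4.17 ± 1.10 and 7.04 ± 2.06 CPM and a log2 difference of 0.84 ± 0.25 from both controls averaged (edgeR adjusted p = 0.123). Without Control-OIL 1 it passed, with an adjusted p of 0.033. Rgs13 and Alox5 are also known from tuft cells of the gut epithelium. Srgn, the proteoglycan core protein that packs granule proteases, differed by 0.91 ± 0.33 (edgeR adjusted p = 0.246), Alox5, which starts leukotriene synthesis, by 0.43 ± 0.19 (0.393), and Rab27b, which serves granule release, by 0.32 ± 0.15 (0.408).

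The 14 genes of the wider list with too few reads to test held 16 to 34 reads per control library and 36, 79, 21 and 18 reads in EHF IKO 1 to 4. EHF IKO 2 had a read of all 14, and the tryptase Tpsab1, the basophil protease Mcpt8 and the receptor Mrgprb2 were counted in no other library. Csf2rb, the shared beta chain of the receptors for interleukin 3 and related cytokines, had the most reads of the 14, with 38, 36 and 47 in the 3 groups. Il1rl1, the receptor for interleukin 33, had 11, 16, 6 and 2 reads in EHF IKO against 9 in all of Control-OIL and 15 in all of Control-TMX. These genes were named after their values were seen. EHF IKO 4, with the most Cma1, had the fewest Il1rl1 reads of the knockout libraries.

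Signals that feed or draw mast cells were taken as another list of 17 genes, of which 8 were tested. None passed in any of the 4 comparisons in edgeR, DESeq2 or limma-voom with all libraries and the filter on low counts (0 in each). At an unadjusted p under 0.05 edgeR gave 1 against the mean of both controls, 4 against Control-OIL, 0 against Control-TMX and 1 between the controls. Kitl, which encodes stem cell factor, differed by -0.24 ± 0.14 on the log2 scale from both controls averaged (edgeR adjusted p = 0.576). The adhesion molecule Vcam1 differed by 0.80 ± 0.26 (0.159), and the integrin genes Itgb6 and Itgae by 0.34 ± 0.17 (0.474) and -0.37 ± 0.20 (0.522). Against Control-OIL, Vcam1 passed without EHF IKO 4 (log2 1.25 ± 0.31, edgeR adjusted p = 0.0338), and Kitl passed without the filter (-0.43 ± 0.13, adjusted p = 0.0353). Il9, a growth factor of mucosal mast cells, had 0 reads in all 12 libraries.

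Cma1 and its neighbourhood were looked at in the annotation, since reads were counted without strand. No annotated gene overlapped Cma1, and the nearest on either side lay 3855 and 5133 bases away. Of the distinct stretches of 50 bases in Cma1 transcripts 5.38% also occur in another gene, Gm48934, which had 0 reads in all libraries, and Mcpt1 and Mcpt2 shared none (0%) with any other gene. Within 500 kb lay 74 other genes, of which 31 were tested. Their log2 differences between EHF IKO and the mean of both controls ran from -1.39 to 1.40, the highest being Mcpt1, with a median of -0.07. One of them passed the threshold: Carmil3, which encodes a capping protein regulator, was lower, at 2.64 ± 0.768, 3.26 ± 0.752 and 1.10 ± 0.291 CPM (log2 -1.39 ± 0.29, edgeR adjusted p = 0.0199). Of the 15 other genes of the protease cluster 1, Mcpt1, could be tested, and the remaining 14, Mcpt2 and Mcpt4 among them, together held 64, 21 and 46 reads in the 3 groups, with 28 of the knockout reads in EHF IKO 2.

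**Figure D3:**
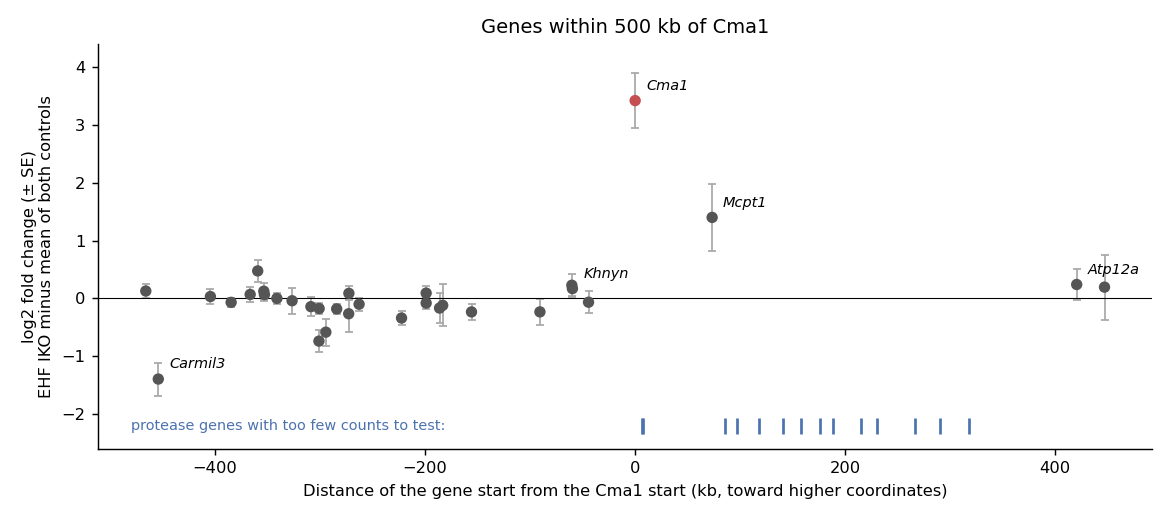
log2 fold change of EHF IKO minus the mean of both controls (y axis, bars are the SE) of the genes tested within 500 kb of Cma1, by distance of the gene start from that of Cma1 in kb (x axis). Cma1 at 3.42 stands above its tested neighbours, which lie between -1.39 and 1.40, and ticks mark protease genes with too few reads to test.

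Markers of the other cells a colon pellet may hold were summed beside Cma1. Fibroblast genes summed to 341 to 456 CPM in Control-OIL, 460 to 779 in Control-TMX and 446 to 1073 in EHF IKO, and against Control-OIL 2 of 9 tested, the collagen genes Col1a2 and Col3a1, rose in EHF IKO (log2 1.10 ± 0.25 and 1.05 ± 0.22, edgeR adjusted p = 0.0445 and 0.0318). For that comparison DESeq2 called 4 of the 9 and limma-voom 0, and against both controls averaged edgeR called 0, DESeq2 3 and limma-voom 0, with 6 at an unadjusted p under 0.05 in edgeR. Smooth muscle genes summed to 14.8 to 40.3, 39.5 to 93.2 and 21.1 to 75.2 CPM, and endothelial genes to 8.08 to 10.7, 11.1 to 16.7 and 11.3 to 17.7. Macrophage genes summed to 17.0 to 25.5, 19.2 to 24.2 and 19.8 to 35.8 CPM, with 6 of 6 higher in EHF IKO than both controls averaged and 0 called (edgeR), 2 at an unadjusted p under 0.05 and 0 by DESeq2 or limma-voom. T cell genes summed to 12.6 to 32.3, 11.0 to 20.8 and 19.6 to 27.3, and eosinophil and basophil genes to 1.33 to 3.35, 3.18 to 3.60 and 2.10 to 5.11. Genes of deep crypt secretory cells, Kit among them, summed to 748 to 1305, 534 to 1117 and 1017 to 1404 CPM, and 2 of 4, Reg4 and Spink4, rose against both controls averaged (log2 2.03 ± 0.23 and 0.75 ± 0.17, edgeR adjusted p = 0.000745 and 0.0385). Enteroendocrine genes summed to 141 to 225, 203 to 248 and 96.0 to 158 CPM, and genes of the colon epithelium to 16590 to 29360, 26800 to 32230 and 19260 to 23970 CPM. For both lists every knockout library lay below every Control-TMX library. Of the 4 enteroendocrine genes 4 were lower in EHF IKO than both controls averaged. One of them, Chga, was called (log2 -0.76 ± 0.12, edgeR adjusted p = 0.00327), and DESeq2 and limma-voom called 1 each. Chga passed in edgeR against Control-TMX (adjusted p = 0.00125) and not against Control-OIL (0.123). Most of the epithelial sum was the mucin gene Muc2, with means of 15780, 20220 and 12270 CPM. Of the 9 epithelial genes 7 were higher and 2 lower in EHF IKO than in Control-TMX, with 0 called by edgeR and 1 by DESeq2. Against Control-OIL 8 were higher and 1 lower, with 2 called by DESeq2 and 0 by limma-voom. There edgeR called 1, Krt20 (log2 0.71 ± 0.17, edgeR adjusted p = 0.0438). Against both controls averaged 8 were higher and 1 lower, with 0 called by edgeR, 2 by DESeq2 and 0 by limma-voom. The part of any of these cells in the Cma1 difference was not tested.

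**Figure D4:**
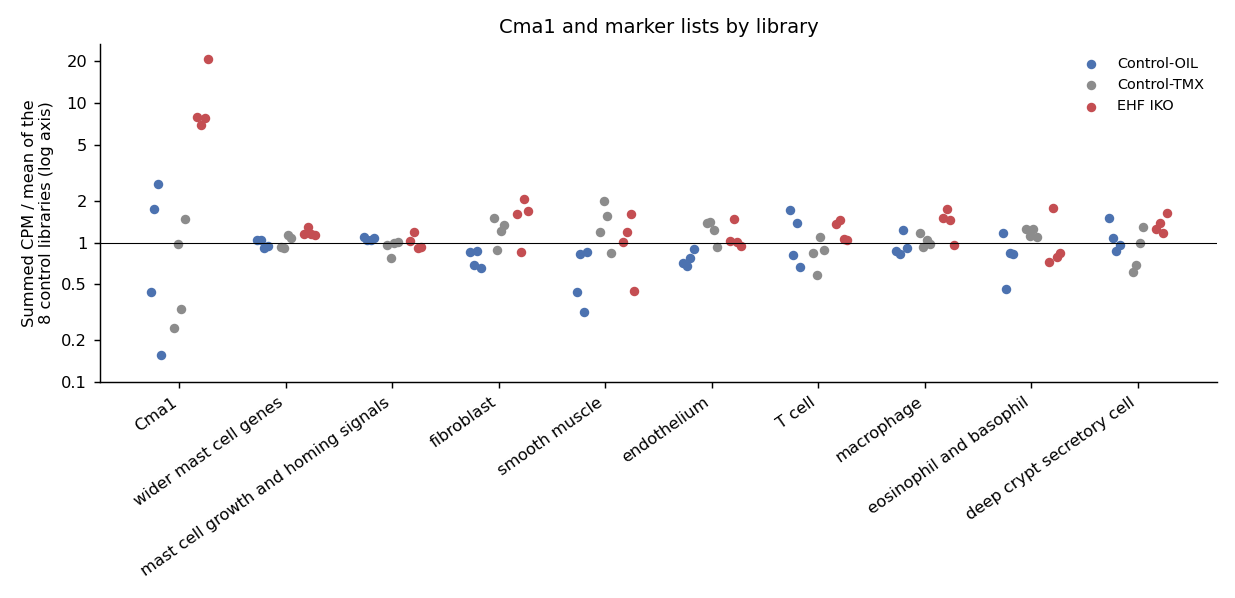
Level of Cma1 and summed level of the wider mast cell, growth and homing, fibroblast, smooth muscle, endothelial, T cell, macrophage, eosinophil and basophil, and deep crypt secretory lists in the 12 libraries, each divided by its mean over the 8 control libraries (y axis, log scale), coloured by group. The EHF IKO and Control-TMX points of each list plotted overlap, and Cma1 is shown beside them for scale, at 4.42 to 13.2 CPM in EHF IKO and at most 1.66 CPM in the controls.

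The genes whose pattern was most like that of Cma1 were ranked by Pearson's r of log2 CPM over the 12 libraries, as a description among 15742 other genes. The points share library, depth and the group difference that chose Cma1. The 10 highest were 2310030G06Rik (r = 0.945), Spon2 (0.939), Prune1 (0.920), Mgst1 (0.918), Ifi27l2b (0.903), Maob (0.903), Reg4 (0.899), Tm4sf1 (0.896), Cbr3 (0.893) and Zfp185 (0.891). Each of the 10 had all 4 knockout libraries above all 8 controls, and none (0) was on the mast cell lists. Nothing is read from that 0. Of those lists only Mcpt1, Kit, 12 wider genes and 8 growth and homing genes were among the 15742 compared. Reg4, a secreted lectin of deep crypt secretory cells, had means of 71.8 ± 19.1, 62.1 ± 24.1 and 274 ± 84.8 CPM, and EHF IKO 4 was its highest library as it was for Cma1. Mgst1, a membrane-bound glutathione transferase, stood at 65.3 ± 11.6, 63.0 ± 8.70 and 114 ± 20.0 CPM. Mcpt1 came at rank 671 (r = 0.573) and Kit at rank 12094 (r = -0.272).

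**Figure D5:**
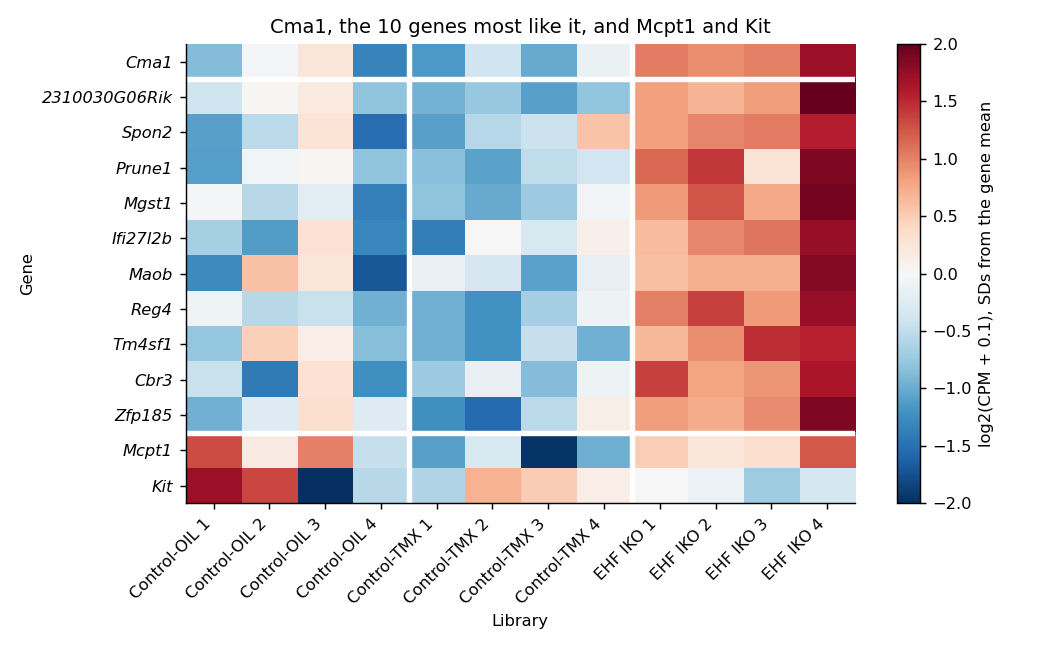
Heat map of Cma1, the 10 genes with the highest r with it, and Mcpt1 and Kit (rows) in the 12 libraries (columns), coloured by log2(CPM + 0.1) in SDs from the gene's mean. The first 11 rows are high in the 4 EHF IKO libraries, Mcpt1 is low in Control-TMX, and Kit shows no split by group.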

How the data were processed

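RNA of 12 colon epithelium pellets was analysed, 4 mice in each of 3 groups taken from the labels, and each mouse counts once. The files hold raw read counts per gene symbol, which per the file headers the authors made with featureCounts 1.6.1 over Ensembl GRCm38 release 98, without strand and without reads that mapped to several places, so close protease genes are measured by their own reads alone. Reads were aligned with STAR per the submitters' processing notes (version not given in the sources used here).

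Members of the list of 10 genes and of the other lists were chosen with earlier results of these data known. Genes were tested in R 4.3.3 with edgeR 4.0.16 (filterByExpr by group, TMM, 1 quasi-likelihood fit of all 12 libraries, robust and legacy settings, 9 residual degrees of freedom) and Benjamini-Hochberg adjustment over 15743 genes, at 0.05. CPM uses TMM-scaled totals, and r uses log2 CPM with a prior count of 2. The common biological coefficient of variation was 18.3%. The fit was tested on simulated data first. Alternatives were DESeq2 1.42.0, limma-voom (limma 3.58.1), other filters and scaling, sex as a covariate, a replicate block and leaving out each library. Sex was inferred from the reads of Xist against those of Y-linked genes in these same libraries, and not taken from a label.

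Named genes are the 10, up to 4 of the wider and of the growth list with the smallest p and any of these called, the 10 most like Cma1 and tested genes within 500 kb of it, given by range where none passed. Gene positions are from the Ensembl release 98 annotation of the counts, and transcripts are from GENCODE M21 (both GRCm38).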

Additional observations from a re-analysis of the deposited data

Results flagged for a closer look

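A library far from the other 3 of its group was looked for in 29 groups of 4 values, and 12 were found. Chance alone marks about 1 in 20 such groups, and genes with 1 or 2 reads in a single library meet the test by construction. EHF IKO 4 was far above the other knockout libraries for Cma1 (13.2 CPM) and for Mcpt1 (2.96 CPM). EHF IKO 2, the library with many genes read in no other, was high for Mcpt2 (1.10 CPM) and was the one knockout library with a Cpa3 read (0.138 CPM). Control-TMX 4 was the one library of its group with reads of Mcpt2 (0.187 CPM), Mcpt4 (0.0935 CPM) and Cpa3 (0.0935 CPM). Single Control-OIL libraries held all the reads of their group for Mcpt4 (0.280 CPM), Cpa3 (0.0987 CPM), Fcer1a (0.127 CPM) and Ms4a2 (0.255 CPM), and Control-TMX 2 did so for Ms4a2 (0.124 CPM).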

How the results depend on the processing

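Cma1 kept its direction against each control in every alternative run. Its log2 difference from the mean of both controls ran from 2.90 to 3.73 when 1 library was left out and from 3.40 to 3.61 otherwise. Against Control-OIL it was 2.61 to 3.75 with 1 library left out (3.13 with all, 3.75 without Control-OIL 3), and against Control-TMX 3.19 to 4.30 (3.71 with all, 4.30 without Control-TMX 4). DESeq2 also called Mcpt1 against Control-TMX, where it called 305 of 15743 genes. As the knockout difference chose the list, nothing is read from that call.

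Between the controls, Cma1 ran from -1.17 to 0.04 with 1 library left out (0.0423 without Control-OIL 3). Kit turned sign with limma-voom (0.024), with the replicate block (0.0105) and with sex as a covariate (0.00815), and ran from -0.194 to 0.121 with 1 library left out. Without a filter on low counts, Mcpt1 passed (-2.90, edgeR adjusted p = 8.97e-05), so that 1 of the 10 genes was called. With the filter 0 of the 3 tested were. Over all genes the unfiltered fit called 441 of 41205, against 13 of 15743 with the filter. The adjusted p of Mcpt1 ran from 8.97e-05 to 0.436 over its alternatives.

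Without the filter 2 genes of the wider list, Il1rl1 and Rgs13, passed against the mean of both controls and 2 against Control-OIL. Leaving out 1 library gave 0 to 1 in each, the 1 being Rgs13 without Control-OIL 1. Of the growth list, Kitl passed against Control-OIL without the filter and Vcam1 without EHF IKO 4. The within-group r ran from 0.305 to 0.832 for Mcpt1, -0.147 to 0.418 for Mcpt2, -0.813 to -0.233 for Tpsb2, -0.591 to -0.182 for Hdc and -0.368 to 0.427 for Kit with 1 library left out.

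Over all genes, the number called against the mean of both controls was 270 of 15743. It was 831 of 41205 without the filter, 471 with DESeq2 and 108 to 522 with 1 library left out. It was 265, 724, 534 and 104 to 711 against Control-OIL, where the compared groups alone gave 0.423 of that number. It was 126, 500, 305 and 50 to 162 against Control-TMX, and 13, 441, 197 and 3 to 67 between the controls, where sex as a covariate gave 38 and a floor on average log2 CPM of 1 gave 5. The replicate block gave 148, 173, 72 and 18. Same-numbered libraries were not treated as pairs in the main fit. Their correlations across groups ran from -0.41 to 0.4, and 5 of 12 libraries correlated best with their own number. These values do not settle whether the numbers pair the mice.

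A floor on average log2 CPM of 1 left no value for Mcpt1, and the fit of the compared groups alone gave none between the controls for Cma1 or Mcpt1. The mean of both controls was not run with the compared groups alone. At 0 to 2 reads a library, Mcpt4, Cpa3, Fcer1a and Ms4a2 cannot show a difference at this depth.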

Other observations

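Gzma and Gzmb, granzymes of cytotoxic lymphocytes, were looked at after the low values of Mcpt1 and Mcpt2 in Control-TMX were seen. Gzma had 10, 5, 12 and 4 reads in Control-OIL, 0, 1, 1 and 2 in Control-TMX, and 11, 2, 4 and 1 in EHF IKO. Gzmb, which lies in the same cluster on chromosome 14 as the chymases, summed to 38, 8 and 14 reads in these groups. For both, as for Mcpt1 and Mcpt2, the Control-TMX sum was the lowest of the 3 groups. Unlike Cma1, neither was highest in EHF IKO. Other genes of the T cell list were highest there, namely Cd3e (26, 29 and 40 reads) and Cd3g (33, 27 and 44). Trdc (13, 12 and 20) and Cd8b1 (3, 1 and 6) were so too. Ptprc (551, 457 and 545) and Cd8a (47, 36 and 40) were highest in Control-OIL. Of these, Cd3e was not lowest in Control-TMX. Gzma and Gzmb thus do not stand for lymphocyte genes as a group.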
